A study of Arabidopsis thaliana with 3 samples.

Results

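N6-methyladenosine (m6A) sites in the 4-letter motif RAAC of Arabidopsis mRNA are described here, where R is A or G and the methylated adenosine is the second A of AAC. They were taken from a list of m6A sites by 2 sequence conditions, an AAC motif centred on the site and a purine (A or G) at position −2, counted from the site. The list held 120269 sites, of which 22017 met both conditions (18.3%, Wilson 95% interval 18.1 to 18.5%). The 2 conditions used sequence alone, within a list that was itself filtered on depth and p-value. Of the members, 14971 had A and 7046 had G at −2. The nuclear chromosomes carried 22014 members, the chloroplast genome 3 and the mitochondrial genome 0.

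All samples were wild-type seedlings of *Arabidopsis thaliana*, accession Col-0, collected after 7 days on plates of half-strength Murashige and Skoog medium, in 3 biological replicates that form 1 group with no treatment and no mutant. Polyadenylated RNA was analysed by CAM-seq, in which chemical deamination turns unmodified adenosine into inosine, read as G, while m6A is still read as A. The level of a site is the percentage of covering reads that remained unconverted there. The counts are a single pool of the replicates, so no error over plants or libraries can be given. Wilson 95% intervals of single sites cover counting error only. Whole seedlings hold shoot and root together. Of the marker genes checked, 4 of 5 for shoot and leaf and 5 of 8 for root had listed sites of any motif, and 0 of 4 for seed storage did. The latter can have low depth or levels under the threshold.

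In plants m6A is installed on nascent mRNA by a writer complex with the catalytic protein MTA and its partner MTB, together with FIP37, VIR and HAKAI. The complex works mainly at adenosines followed by cytosine in a purine-rich context, and mostly in 3′ untranslated regions (UTRs) close to the stop codon. YTH-domain proteins such as ECT2, ECT3 and ECT4 and the long form of CPSF30 bind the mark, and ALKBH9B and ALKBH10B remove it. The pathway is needed for embryo development, for the timing of leaf formation and for trichome branching.

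The 5-letter forms of the motif are shown in real transcripts, 7 of the 8, to give the sequences behind the classes. For each of these the deepest site with a level of at least 50% and a context listed once is printed, 5′ to 3′ as RNA, with the 5 letters in capitals and the methylated adenosine as the middle capital. Positions are in TAIR10 and give the printed stretch of 21 bases.
LHCB4.1, chr5:210275-210295, plus strand: uuauguaaAAACAgagcuaug
AT5G15200, chr5:4934988-4935008, minus strand: agauugcuAAACCuuuggguu
TCTP, chr3:5669524-5669544, minus strand: uccgcaaaAAACGguuuauca
AT5G20290, chr5:6851612-6851632, minus strand: ugucugagAAACUauguuuuu
FSD1, chr4:12884496-12884516, minus strand: uguguaauGAACAauuaaaca
TPI, chr3:20556209-20556229, plus strand: uguuuugaGAACGcaacaauc
AT5G02960, chr5:693182-693202, minus strand: uguuucaaGAACUugauuuug
All 7 lay in the 3′ UTR within the last exon. LHCB4.1, a minor antenna protein of photosystem II, had a level of 51.5% (50.6 to 52.3%) over 13801 reads at 42 nt after the stop codon. TCTP, which encodes the translationally controlled tumour protein, was at 89.8% (89.3 to 90.4%) over 12259 reads at 175 nt. TPI, the glycolytic triose phosphate isomerase, was at 84.0% (82.9 to 85.1%) over 4171 reads at 141 nt, and FSD1, an iron superoxide dismutase, at 67.4% (66.2 to 68.6%) over 5888 reads at 143 nt. The other 3 encode ribosomal proteins and ranged from 61.2% in AT5G15200 to 77.0% in AT5G02960. In each of the 7 genes the printed site was above the summed reads of the gene's other listed sites, which stood between 8.37% in FSD1 and 34.4% in AT5G15200. The choice of sites at 50% or more favours this outcome. In the test given further below, 58.4% of RAAC sites and 31.4% of all sites were called above their gene.

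RAAC sites spanned the whole range of levels. Their mean was 48.96% ± 29.9 (SD over 22017 sites) and their median 48.05%, the middle part of the members lying between 20.3% and 76.6% (quartiles). More than 50% of reads were unconverted at 10621 members (48.2%), more than 90% at 2272 (10.3%), and 142 had no converted read at all. Sites outside the class had a mean of 28.1%, and 2.13% of them were above 90%, so that RAAC supplied 2272 of the 4366 sites above 90% in the list. AAC sites with a pyrimidine (C or U) at −2, called YAAC below, numbered 10209 with a mean of 35.7% ± 25.6, and 3.05% were above 90%. The 15091 GAC sites stood nearer, at 44.1% ± 29.2 with 7.18% above 90%. The distribution of RAAC had 2 broad maxima, at 5 to 15% and at 85 to 95%, and was thinnest between them at 45 to 50% (813 sites).

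**Figure D1:**
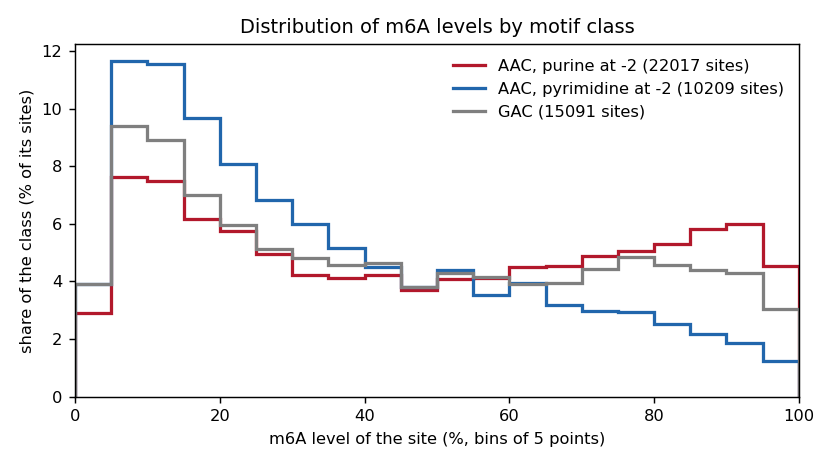
Distribution of m6A levels in bins of 5 points (x axis) as the percentage of each class (y axis) for AAC sites with a purine at −2 (red), AAC sites with a pyrimidine at −2 (blue) and GAC sites (grey). The red line rises again above 60%, where the blue line keeps falling, and at both ends GAC lies between them or beside one of them.

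The lower end of the distribution was set by the list. A site entered it at a depth of at least 20 reads and a binomial p-value below 0.001, so a site of 20 reads could be listed only from a level of 20% on, and a site of 1000 reads from 2.2% on. Depth at RAAC sites had a median of 81 reads (quartiles 41 and 190, maximum 180563), against 113 reads at all other sites. From 100 reads on, levels were lower at greater depth. The 7016 sites of under 50 reads had a median of 50%, the 5524 sites from 50 to under 100 reads one of 50.6%, the 7319 sites from 100 to under 500 reads one of 46.8%, the 889 sites from 1000 to under 5000 reads one of 37.8%, and the 174 deeper sites one of 25.7%. Weighted by reads, RAAC had 37.5% unconverted reads and contributed 25.3% of all unconverted reads in the list.

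A and G at position −2 gave nearly the same mean level, 48.95% and 48.99%. The difference of A minus G was −0.0415 points, with a 95% interval over sites of −0.897 to 0.814. With at least 100 reads it was −1.38 points. In a narrower set of 4348 sites, 60 to under 180 nt after the stop codon and with at least 100 reads, the means were 56.0% for A (SE 0.553, 2843 sites) and 58.7% for G (SE 0.756, 1505 sites). So over all bases at +2 together, G was the higher base in the deep sets by a small margin. The 2 could not be ordered over all sites.

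The base at +2 separated the class more. A gave 51.3% (7725 sites) and U 50.3% (8539 sites), whereas G gave 45.2% (1854 sites) and C 43.2% (3895 sites). Standard errors over sites were between 0.325 and 0.698 points. In the narrower deep set the order was A, U, G, C as well, at 60.2%, 58.5%, 52.8% and 50.1%. Among the 5-letter forms, GAACA had the highest mean, 51.4%, above AAACA at 51.3% and AAACU at 50.9% by less than 1 SE. The lowest was AAACC with 41.2%, and GAACC, its counterpart with G at −2, had 46.8%. The base at −2 thus made least difference with A at +2 and most with C. Its order was not the same throughout. With U at +2, AAACU at 50.9% (SE 0.389) was above GAACU at 48.9% (SE 0.592). With G at +2, AAACG at 45.6% (SE 0.837) was above GAACG at 44.3% (SE 1.26).

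Listing frequency followed another order than level. From 20 nt before to 180 nt after the last base of the stop codon, 64.2% of all GAACU adenosines in transcripts with listed sites were themselves listed as m6A, and 62.6% of AAACU adenosines were. The other forms ranged from 44.7% for GAACG to 51.9% for AAACA. U at +2 therefore went with the most frequent listing, while A and U went with almost equal levels. With a pyrimidine at −2 the same measure ran from 20.6% for CAACC to 54.9% for UAACU.

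Further out, position +4 had the widest range of mean level of any position from −10 to +10. U at +4 gave 52.3% (SE 0.327, 8756 sites), A 48.8%, G 45.7% and C 43.5% (SE 0.535, 2965 sites), a range of 8.78 points against 8.19 at +2. Upstream the widest was −4, where A gave 52.1% and G 46.7%. Outside −2 the remaining positions had ranges of 1.74 to 4.72 points, with U highest at all of them except −3, where A was. In YAAC the ranges at +2 and +4 were wider, 13.3 and 13.2 points. Across words of 7 letters with at least 50 sites, the mean level ran from 34.9% in CAAACCC to 56.9% in AGAACAG. Base composition moved with level too: ranked by the number of A and U in the context and cut into 5 equal groups, sites had a mean of 38.04% in the group with the fewest and 55.8% in that with the most. In the narrower deep set the groups were less far apart and had no steady order, at 52.5% for the lowest, 60.5% for the middle and 57.9% for the highest.

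**Figure D2:**
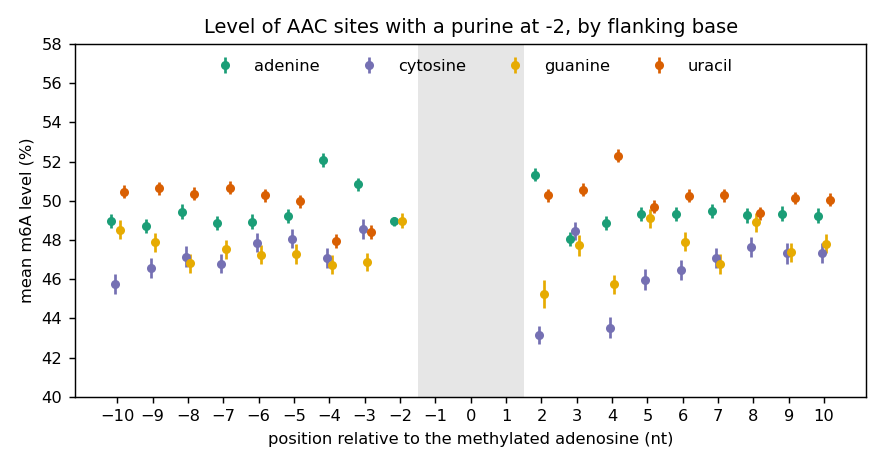
Mean m6A level (y axis, %, shown from 40 to 58) of AAC sites with a purine at −2, by the base at each position relative to the methylated adenosine (x axis, nt), with bars of 1 SE over sites. The shaded positions are fixed by the motif. The bases spread most at +2 and +4, and the points for A and G at −2 coincide.

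Like the other sites of the list, RAAC sites lay mostly in 3′ UTRs. Of 21166 members placed on coding transcripts, 18801 (88.8%, 88.4 to 89.2%) lay in the 3′ UTR, while coding sequences held 2226 (10.5%) and 5′ UTRs 139. The share was 93.3% over all other listed sites, 94.2% in YAAC and 87.2% in GAC. The same transcripts had only 16.0% of their RAAC adenosines in the 3′ UTR. There 40.7% of RAAC adenosines were listed, whereas coding sequences had 1.11% and 5′ UTRs 0.333% listed. Levels followed the same order, with means of 52.8% ± 29.1 (SD over sites) after the stop codon, 19.4% ± 17.97 within the reading frame and 15.2% ± 13.2 before it. The listed sites had median depths of 82, 82.5 and 70 reads in these regions, and the depth of adenosines that were not listed was not measured.

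Both listing and level rose across the stop codon. Close to −200 nt 0.552% of RAAC adenosines were listed, between −20 and −1 nt 23.2%, and the highest share was 68.5% at +80 to +99 nt (1800 of 2626 adenosines, 66.7 to 70.3%). It then fell to 49.4% just before +180 nt and 10.2% just before +400 nt. The mean level was 24.9% just before the stop codon, 29.4% in the first 20 nt after it, 57.6% at +80 to +99 nt and 59.9% at +100 to +119 nt. Further downstream it did not fall with the listing, being still 53.7% (SE 3.49, 60 sites) just before +400 nt. Sites far from the stop codon were thus listed less often but at levels not far below the highest. YAAC had the same shape lower down, with 55.4% listed and a mean of 38.6% at +80 to +99 nt. Median depth of listed RAAC sites was 90 reads in the window from −20 to +180 nt and 63 reads in the 3′ UTR beyond it. Motif adenosines were counted whether or not reads covered them, so those with too few reads count as not listed. Their part in the fall of listing was not tested.

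**Figure D3:**
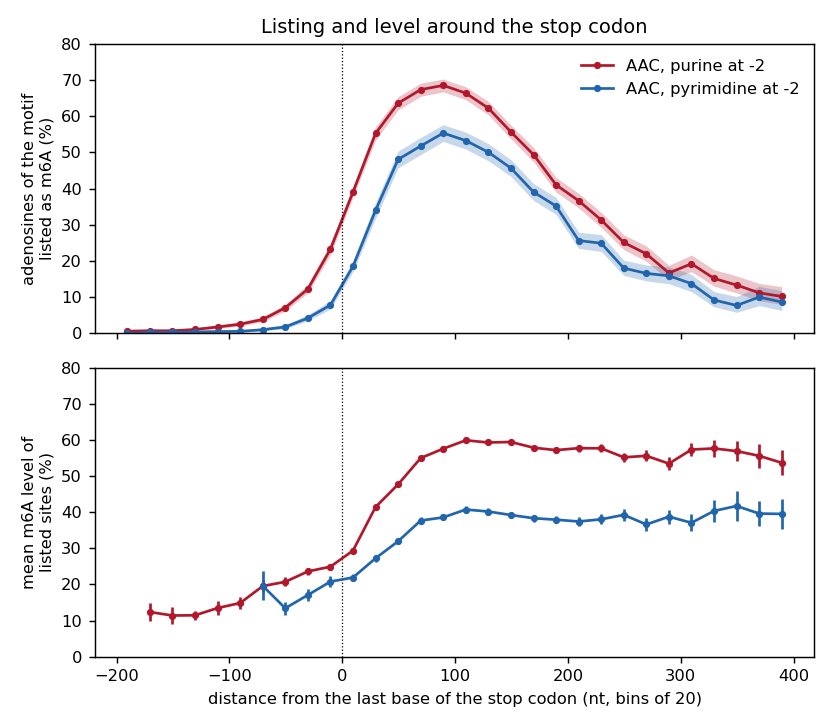
Share of motif adenosines that were listed as m6A (upper panel, %, band: Wilson 95% interval) and mean level of the listed sites (lower panel, %, bars: 1 SE over sites, bins with at least 20 sites) against the distance from the last base of the stop codon in bins of 20 nt, for AAC sites with a purine (red) or a pyrimidine (blue) at −2. Listing peaks at +80 to +99 nt and declines, whereas the level reaches a plateau. Motif adenosines were counted whether or not reads covered them.

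The window from −20 to +180 nt held 71.9% of placed RAAC sites and 9.78% of their adenosines, and 72.0% of all other placed sites. Within 2384 genes having RAAC sites both inside and outside it, sites inside were higher by 5.03 points (SE 0.793), higher in 1337 genes and lower in 1046. The difference was 1.29 points (1449 genes) among sites of at least 20% and 3.30 points (2154 genes) at a p-value under 0.0001. Its sign depended on where the window ended, since with an end at +100 nt it was −10.4 points (3222 genes). The last exon held 96.1% of members at a mean of 50.2%, and the 816 in earlier exons had 19.6%. Distance from the last exon junction, where transcripts had one, also went with level: 28.9% from 50 nt (774 sites), 51.4% from 100 nt (4288 sites), 56.7% from 200 to under 400 nt (8382 sites) and 44.0% from 800 nt on (1580 sites). Within 100 nt of the transcript end the mean was 58.5% (4535 sites), against 46.5% elsewhere. These distances are tied to each other within a transcript and their parts were not separated.

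Most members had company. Another listed site lay within 20 nt of 67.1% of RAAC sites and within 50 nt of 88.0%. The mean level rose with the number of such neighbours, from 20.4% for 2651 sites with none within 50 nt, through 31.4% with 1 and 50.1% with 3, to 73.0% for 3786 sites with 6 or more. In the narrower deep set the range was as wide, 13.6% (207 sites) to 73.0% (1554 sites), so it was also present within a single stretch of the 3′ UTR and at 100 reads or more. The authors removed reads with more than 3 unconverted adenosines or more than 1 in 3 of them unconverted, a step that takes away reads where methylated sites are close together. Its part in these levels was not tested.

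Next to the site itself, other adenosines were seldom listed. The adenosine at −1, present in every member, was listed in 72 of 22017 cases (0.327%, 0.260 to 0.412%), with a mean level of 6.52% there. Listing was 0.174% at −2 and 0.351% at −3, and it reached 6.34% at −4. On the other side 5.80% of adenosines at +2 and 15.1% at +6 were listed. Where a second site was listed 6 nt downstream, the RAAC site had the higher level in 718 of 953 cases, with means of 60.2% and 34.1%. The second sites could be of any motif. Over the whole list RAAC sites also had the higher mean, 48.96% against 28.1% outside the class. The motif puts a purine after the adenosines at −3, −2 and −1, so none of these was followed by C. How often adenosines followed by a purine were listed away from RAAC sites was not measured.

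**Figure D4:**
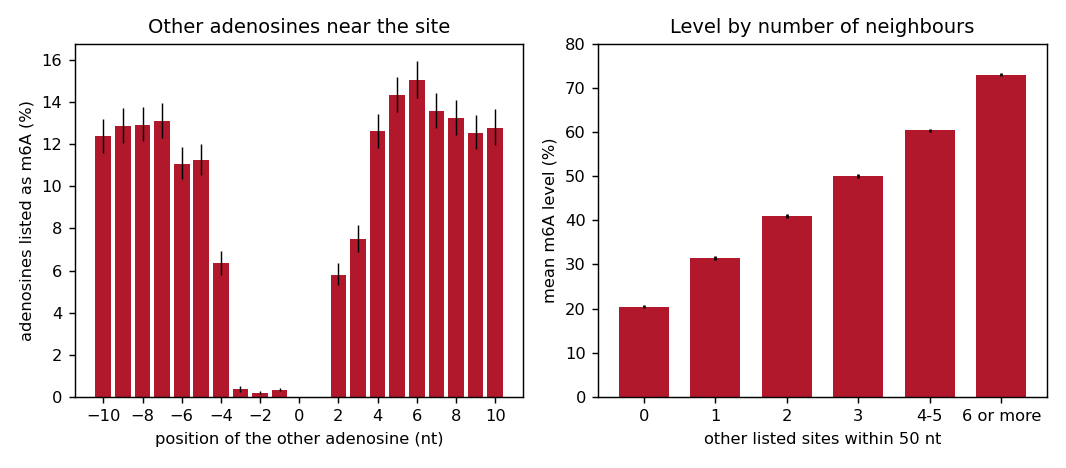
Left, percentage of adenosines listed as m6A (y axis, bars: Wilson 95% interval) at each position (x axis, nt) around AAC sites with a purine at −2, positions 0 and +1 being fixed by the motif. Right, mean level (y axis, %, bars: 1 SE over sites) by the number of other listed sites within 50 nt (x axis). Positions −3 to −1, where the motif fixes a purine as the next base, are nearly empty. The level climbs from 20.4% to 73.0%.

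RAAC sites were often the strong sites of their genes. Each listed site with a single gene name was set against the summed reads of the other listed sites of its gene by a two-sided Fisher's exact test, adjusted by the Benjamini-Hochberg method over 114546 sites. Of all sites, 31.4% were called above their gene and 41.3% below it at an adjusted p under 0.05. Of 20783 RAAC sites tested, 12128 were above (58.4%) and 3369 below (16.2%). YAAC sites were above in 35.8% and below in 32.1% of cases, and GAC sites in 50.6% and 22.8%. The RAAC share above its gene was 51.0% at 20 to 49 reads and 66.8% at 500 reads or more, where the share over all sites was 29.9% and 32.0%. The share below its gene rose as well, from 7.27% to 26.1% for RAAC and from 18.4% to 60.2% over all sites. Neighbouring sites share reads, so the calls within a gene are not independent, and they take in counting error alone.

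The highest site of a gene was a RAAC site in 44.3% (43.4 to 45.1%) of 13529 genes with at least 2 listed sites, although RAAC made up 18.1% of the sites of those genes. GAC held the highest site in 22.8% of genes with 12.4% of sites, and YAAC in 8.21% with 8.48%. RAAC sites were found in 10803 of 15198 genes with listed sites (71.1%). In 6683 of these genes a RAAC site exceeded 50%, and in 1903 one exceeded 90%. A gene with 3 or more RAAC sites had a median range of 49.4 points between its highest and lowest, and 20.4% of the variance of RAAC levels lay between genes (16429 sites in 5918 genes). Sites of one gene therefore differed from each other more than genes did.

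The purine at −2 was compared with the pyrimidine inside the same genes, where expression is shared. In 5103 genes with both, the mean of RAAC sites was 52.4% and that of YAAC sites 34.9%, a difference of 17.5 points (SE 0.420 over genes). RAAC was higher in 3785 genes and lower in 1314. By Fisher's exact test on summed reads RAAC was above YAAC in 2941 genes (57.6%) and below in 840 (16.5%). Such calls take in counting error alone. For the nearest pair of each gene, at most 50 nt apart, the difference was wider, 25.6 points (SE 0.494, 3437 genes), with RAAC higher in 2797 genes and lower in 637. Against GAC, RAAC was higher by 6.49 points (SE 0.382, 6487 genes), 50.9% against 44.4%. Its mean was the higher one in 3830 genes and the lower one in 2656. It was called above GAC in 2797 genes (43.1%) and below in 1783 (27.5%). RAAC thus led both related motifs on average, by a wide margin over YAAC. Calls the other way were made in 16.5% of the genes tested against YAAC and 27.5% of those tested against GAC. By mean level alone, more genes went the other way, 1314 against YAAC and 2656 against GAC.

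Sequences of a gene from either side of that balance are given to show the contexts behind the opposite outcomes, with the same notation.
AT1G36980 purine site, chr1:14026874-14026894, plus strand: uucuguuaAAACUuuguguga
AT1G36980 pyrimidine site, chr1:14026764-14026784, plus strand: uacugugaCAACUuacaaguu
TMK1 purine site, chr1:24634423-24634443, plus strand: auuccuugAAACCcagauuug
TMK1 pyrimidine site, chr1:24634514-24634534, plus strand: gaugcaagUAACAuuuagggc
AT1G36980, which encodes a transmembrane protein, had 98.2% (97.1 to 98.9%) of 900 reads unconverted at the purine site, 157 nt after the stop codon, and 5.70% (4.37 to 7.39%) of 913 reads at the pyrimidine site, at 47 nt. TMK1, a receptor kinase of auxin signalling at the cell surface, had 11.9% (8.12 to 17.1%) of 202 reads at its purine site, 18 nt after the stop codon, and 87.3% (82.1 to 91.1%) of 212 reads at its pyrimidine site, at 109 nt. In both genes the site further upstream was the lower one.

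Between the 2 classes the same held in the other 4 genes with the largest differences among those with at least 100 reads at every site. AT3G12390, a subunit of the nascent polypeptide-associated complex, had 96.2% at its RAAC site 126 nt after the stop codon and 2.17% at its YAAC site at 32 nt. PPOX, a protoporphyrinogen oxidase of haem and chlorophyll synthesis, had 98.1% and 95.4% at RAAC sites 8 and 60 nt after the stop codon and 3.77% at a YAAC site in the coding sequence. In the reverse direction AT1G12000, of the phosphofructokinase family, had 2.92% at a RAAC site in the coding sequence and 80.6% over 3 YAAC sites in the 3′ UTR, 2 of which have a context listed more than once. These 3 sites fell downstream, from 94.8% at 90 nt to 72.0% at 127 nt and 39.2% at 170 nt. AT2G30710, a Rab GTPase-activating protein, had 22.4% at a RAAC site in the coding sequence and 96.0% at a YAAC site 112 nt into the 3′ UTR. These genes were named for their size of difference, and the adjusted p of Fisher's exact test for RAAC against YAAC was 1.14e-158 in PPOX, 1.15e-57 in TMK1 and 1.98e-44 in AT2G30710. Those p-values cover the counting of reads at a few sites of a single pool, not the spread over sites or plants.

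Genes with the most RAAC sites show the spread within one UTR. VAB3, the B subunit of the vacuolar proton-pumping ATPase, had 10. Its sites at −38, 1 and 11 nt from the stop codon were at 3.98%, 5.98% and 5.66%. Those at 48, 74, 94 and 99 nt were at 51.2%, 64.5%, 25.7% and 74.7%. The last 3, at 170, 194 and 218 nt, were at 98.0%, 76.1% and 94.5%. The 3 sites nearest the stop codon were called below the gene and 6 of the others above it. MDAR1, a monodehydroascorbate reductase that recycles ascorbate, had 9, with 6.09% at 6 nt, 96.2% at 56 nt and 15.2% at 220 nt, and so was low at both ends of the stretch. Only 4 bases separated its sites of 15.7% (12.8 to 19.2%) and 69.8% (66.1 to 73.3%), at 20 and 24 nt.

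TLP18.3, a thylakoid lumen protein of photosystem II repair, did not start low after the stop codon. Its site at 9 nt was at 84.0% (81.4 to 86.2%) of 885 reads. Those at 28 and 33 nt were at 13.2% and 17.1%, and those at 48 and 104 nt at 65.2% and 74.5%. At 130 and 147 nt the levels were 38.9% of 54 reads and 7.69% of 78 reads. TLP18.3 is 1 of 10 genes with 8 RAAC sites. AT5G53480, which encodes an importin beta for nuclear import, and AT3G12590, whose product is not described here, had 9 each, all more than 350 nt from the stop codon. They ranged from 11.6% to 77.4% and from 27.5% to 100%.

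**Figure D5:**
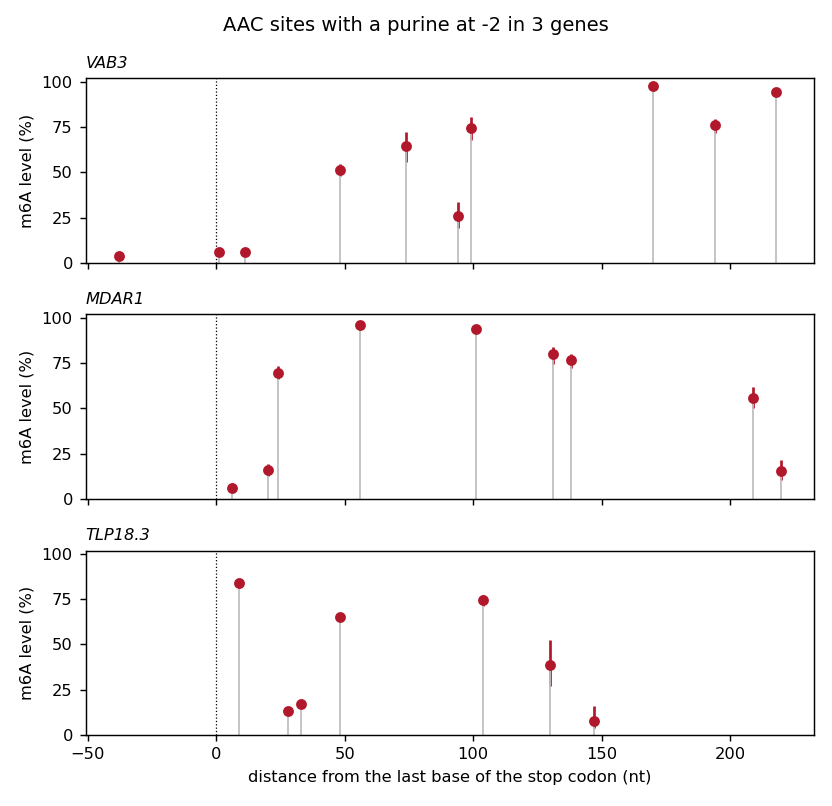
m6A level (y axis, %, bars: Wilson 95% interval) of the AAC sites with a purine at −2 in VAB3, MDAR1 and TLP18.3 against their distance from the last base of the stop codon (x axis, nt). Low and high sites lie side by side in each gene, and the lowest sites of VAB3 and MDAR1 include those next to the stop codon. A site of TLP18.3 in the 5′ UTR is not drawn.

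The deepest RAAC sites had low levels. RBCS1A, a small subunit of Rubisco, had 3.47% (3.39 to 3.56%) of 180563 reads unconverted, and its paralogue RBCS3B had 2.53% (2.43 to 2.62%) of 110525 reads. THI1, the thiazole synthase of thiamine formation, had 9.27% and 7.82% at sites 128 and 96 nt after the stop codon, and PSBR, a photosystem II subunit, had 8.82% of 74220 reads. The RBCS1A and THI1 sites were nevertheless above the rest of their gene, which stood at 2.65% for RBCS1A (Fisher's exact test, adjusted p = 2.71e-75). RBCS3B and PSBR were below theirs. Also called below their gene inside the stop codon window, and next in depth, were RBCS1B (1.299%), PSBW, another photosystem II subunit (3.21%, with 14.1% at its other sites), and GRP-3, a glycine-rich protein (1.26%). The RBCS1B and GRP-3 levels lie close to the background of 1% used for listing.

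At the other end, the deepest sites of at least 90% were in RBP31, ARFA1E, EMB3137, AT3G12965 and RPL5B. RBP31, a chloroplast RNA-binding protein, had 96.2% (95.7 to 96.7%) of 5217 reads unconverted at 92 nt after the stop codon, where its other 12 sites together had 18.4%. ARFA1E, an ADP-ribosylation factor of vesicle traffic, had 93.6% of 4559 reads at 78 nt. EMB3137 and RPL5B, both ribosomal proteins, had 90.6% and 90.3% at 99 and 68 nt. AT3G12965 was not placed on a coding transcript and had 91.8%. The contexts of RBP31 and RBCS1A are shown as the deepest site of at least 90% and the deepest site of all.
RBP31, chr4:12766121-12766141, minus strand: uuuuggcuGAACUcugaaugu
RBCS1A, chr1:25048425-25048445, minus strand: aaaccucaAAACUuuaucccc
Both have U at +2 and lie 92 and 30 nt after the stop codon. Members of the RBCS family are similar in sequence, so reads can be assigned to the wrong copy, although these printed contexts were listed once.

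Genes of known function were looked at in lists, to be read against all RAAC sites, whose median was 48.05% and of which 58.4% were above and 16.2% below their gene. Over all genes with listed sites, 71.1% had a RAAC site. Of 6 m6A writer genes 5 had listed sites and 4 had RAAC sites, a share near that of all genes, with 7 sites in all with a median of 90.9%, and 6 were called above and 1 below their gene. MTA, the catalytic subunit, had 97.2% (92.01 to 99.03%) of 106 reads at 69 nt after the stop codon (Fisher's exact test, adjusted p = 5.69e-33), with 31.9% at its other 4 sites. MTB had 96.3% at 73 nt and 75% at 30 nt, and FIP37, the homologue of the animal splicing regulator WTAP, had 92.3% of 52 reads. HAKAI, a ubiquitin ligase, had 61.9%, 90.9% and 27.5% at 33, 73 and 114 nt. VIR had listed sites of other motifs only, and FIO1, the writer of U6 small nuclear RNA, had none. In these genes the strongest sites lay between 69 and 81 nt from the stop codon.

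The YTH readers were more mixed. Of 12 genes 10 had RAAC sites, 17 sites with a median of 50%, of which 10 were above and 3 below their gene, close to the shares over all RAAC sites. ECT1 had 6, at 47.3%, 83.7%, 50%, 83.3%, 61.3% and 93.3% from 48 to 198 nt. ECT2, the main reader of leaf formation and trichomes, had only 4.53% (2.77 to 7.34%) of 331 reads at its RAAC site, below its other sites at 14.6%. ECT3, which acts with it, had 4.11% and 4.79% at 1 and 25 nt and 46.3% (41.3 to 51.3%) at 115 nt. ECT4, the third of that group, had 63.6%, and CPSF30, whose long form joins m6A reading to polyadenylation, had 93.0% of 57 reads. Of the demethylases, ALKBH9B had 78.8% and 85.2% over 33 and 27 reads, and ALKBH10B, which affects flowering time, had 37.5% of 48 reads. All 3 were above their gene.

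Photoreceptor genes all carried RAAC sites, 13 in 6 genes with a median of 63.8%, of which 10 were above and 1 below their gene. PHYA, the far-red sensing phytochrome, had 90.9% (85.3 to 94.5%) of 154 reads. PHYB, the red light phytochrome, had 4.94% in the coding sequence and 48.98% and 33.3% in the 3′ UTR. The blue light receptors CRY1 and CRY2 had 55.0% to 64.2% and 70.7%. PHOT1 and PHOT2, the phototropins, had 72.8% and 79.3% at 47 and 45 nt, both over more than 500 reads, and PHOT1 also had 25.6% at 13 nt. The intervals of the sites at 47 and 45 nt, 69.02 to 76.3% and 75.8 to 82.4%, overlapped slightly, and the difference between the 2 phototropins was not tested.

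Of 15 clock genes 7 had a listed site of any motif, and 4 of these had RAAC sites, 8 sites with a median of 77.5%, 6 above and 1 below their gene. PRR3, a pseudo-response regulator, had 78.8%, 94.7% and 82.1% over 28 to 52 reads. ZTL, an F-box protein with a blue light sensor, had 80.4%, ELF3 of the evening complex 76.1% at 89 nt and 22.4% in the coding sequence, and TOC1, another pseudo-response regulator, 10.8% and 43.7%. CCA1, the morning MYB factor, had no listed site of any motif. Clock genes without listed sites can have low depth or levels under the threshold. In LHY, GI and RVE8, which had sites of other motifs only, the deepest listed site had 21, 23 and 42 reads.

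Genes of light harvesting and carbon fixation had low levels. Of 20 genes 17 had RAAC sites, 33 sites with a median of 7.89%, and only 1 site, in LHCB4.1, exceeded 50%. Above their gene were 16 sites and below it 12. Their median depth was 2591 reads, and RAAC sites of 1000 to under 5000 reads had a median of 37.8% over all genes. LHCA2, a photosystem I antenna protein, reached 39.9% at 72 nt, and LHCA1, another of these, 33.8% at 53 nt. RBCS1B had 29.2% (28.3 to 30.1%) at 93 nt against 1.299% at 37 nt. LHCB6 had 5 sites, all between 1.85% and 14.5%, of which 4 were below the gene, and RCA, the Rubisco activase, had 4 between 2.22% and 7.89%. The shoot and leaf markers, which share genes with this list, had 6 sites with a median of 5.18%. The part of depth in these levels was not tested.

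Genes of auxin response and transport had 28 RAAC sites in 13 of 17, with a median of 39.4%, 18 above and 4 below their gene. ARF1, a repressing auxin response factor, had 90.9% (83.6 to 95.1%) at 225 nt. ARF8, an activating one, had 5 sites from 39.2% to 88.0%. ARF6, its close partner, had 6.45% at 13 nt and 48.4%, 81.9% and 66.1% from 143 to 230 nt. AFB2, an auxin receptor, had 74.4%, whereas AFB3 had 22.3% to 39.5%, and TIR1, the founding receptor, had no RAAC site among its 12 listed sites. The efflux carriers PIN3 and PIN7 stayed between 20.1% and 32.8%, and the influx carrier AUX1 had 25.6% and 32.4%. Among the genes named here, the sites above 50% were in the receptor gene AFB2 and the response factor genes ARF1, ARF6 and ARF8.

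Of 8 trichome genes 5 had listed sites and 3 had RAAC sites, 5 sites in all, of which 4 were above and 0 below their gene. TTG1, the WD40 protein that specifies trichomes, had 87.2%, 57.1% and 57.7% from 136 to 189 nt, and ITB1, which encodes the SCAR2 subunit of the actin-nucleating SCAR complex needed for trichome shape, had 94.7% of 57 reads. TRY, an inhibitor of trichome fate, had 35.3% in the 5′ UTR. Of 5 shoot stem cell genes 3 had listed sites, and only CLV1, the receptor kinase that limits the meristem, had a RAAC site, at 36.1% of 36 reads. Of 8 root markers 5 had listed sites, and only SCR, a GRAS factor of the endodermis, had a RAAC site, at 35.2%.

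The 10 genes used as expression references all had RAAC sites, 29 with a median of 39.3%, of which 25 were above and 2 below their gene. ACT2, ACT7 and ACT8, the vegetative actins, ranged from 37.6% to 73.2% over 11 sites, each above its gene. TIP41 had 68.3%, 92.2%, 92.2% and 71.7% at 64, 68, 136 and 144 nt. GAPC2, a glycolytic dehydrogenase, had 5.67% to 27.0%, EF1A, a translation elongation factor, 20.2% to 39.3%, and UBQ10, a polyubiquitin gene, 4.48% and 4.55% over 10096 and 3122 reads. These widely expressed genes thus spanned nearly the whole range of RAAC levels.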

How the data were processed

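CAM-seq was run on polyadenylated RNA of 3 seedling replicates, which form 1 group. Per the study's methods and the labels, the authors trimmed adapters with Cutadapt, took a random barcode of 10 nt from read 1, mapped reads to TAIR10 with hisat2-3n (versions not given in the sources used here), and removed reads with over 5% mismatches or clustered unconverted adenosines. The deposited counts per site are all covering reads and unconverted reads, raw and pooled over replicates, so depth per sample is unknown. The deposited p-value was recomputed as a binomial test against a background of 1% and matched within 1e-06 at all 19488 RAAC sites with a p-value above the range limit. The largest was 0.000989.

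Levels, Wilson intervals, Fisher's exact tests and Benjamini-Hochberg adjustment were computed in Python 3.11.15 with SciPy 1.17.1 and pandas 2.3.3. The tests were also run on simulated counts drawn independently per site, whereas real neighbouring sites share reads. That check therefore does not cover dependence between sites or spread between plants. RefSeq's TAIR10.1 annotation gave regions, with 1 transcript per gene, that of the longest reading frame. At 21781 of 22014 nuclear RAAC sites the deposited 31-base context was identical to it, and at 22005 the central 5 bases were. A single gene name was given for 21314 members, several for 66 and none for 637. The base at −2 was in lower case at 67 members, which were kept.

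The motif class and the gene lists were chosen with earlier results of these data known. Named sites and genes followed a rule: the deepest site of at least 50% per five-letter form, the 5 deepest, the 5 deepest of at least 90%, the 5 deepest below their gene in the window, the 5 genes with most members, the 3 genes with the largest RAAC and YAAC differences each way, and in each gene list the deepest and highest site. Other genes of the lists were named after their values were seen, and some that the rule or lists hold are not reported here. Alternatives were depth of at least 100 reads, level of at least 20%, p-value under 0.0001, contexts listed once, the nearest pair, a window to +100 nt, pooled reads and, chosen after seeing the data, upper-case bases only.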

Additional observations from a re-analysis of the deposited data

Results flagged for a closer look

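Data outside the gene comparisons carried RAAC signal as well. On nuclear chromosomes 636 RAAC sites had no gene name, 49.2% ± 28.6 in mean level (SD over these sites) at a median depth of 46 reads, and 46.1% of them were above 50%. The levels ranged from 3.80% to 100%. In the chloroplast genome 3 RAAC sites were listed. The one without a gene name had 5 of 74 reads unconverted (6.76%, Wilson 95% interval 2.92 to 14.9%), ATCG00920 had 14 of 471 (2.97%, 1.78 to 4.93%) and ATCG01130 had 15 of 123 (12.2%, 7.53 to 19.1%). All 3 lie above the background of 1% that the listing uses, as any listed site must.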

How the results depend on the processing

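Of 81 alternative values, 45 stayed within the margins set for them, 35 moved and 1 changed sign: the difference between sites inside and outside the window was −10.4 points with the window to +100 nt, which then held 43.4% of sites. A depth of at least 100 reads gave a mean level of 46.0%, a share of listed sites of 15.04%, A minus G of −1.38 points, 77.0% in the window, RAAC minus YAAC of 18.4 points, 36.8% of highest sites, 65.2% of sites above and 21.5% below their gene, and with fewer genes tested 1454 genes above and 460 below YAAC and 1415 above and 1006 below GAC. A level of at least 20% gave a mean of 61.1%, a share of 26.1%, A minus G of −1.21 points, 95.4% in the 3′ UTR, 74.2% in the window, 1.29 points inside minus outside, 15.9 points over YAAC, 4.85 points over GAC, 45.8% of highest sites, 50.1% above their gene, 1739 genes above and 440 below YAAC and 1783 above GAC. A p-value under 0.0001 gave a mean of 50.9%, a share of 19.1%, 90.6% in the 3′ UTR, 73.0% in the window, 3.30 points inside minus outside and 15.4% below their gene. The nearest pairs gave 25.6 points over YAAC with 262 genes below, and pooled reads a level of 37.5%. Contexts listed once and upper-case bases only, the latter chosen after seeing the data, stayed within the margins. The counts of genes that moved by more than 1.5 times did so with fewer genes tested. No paired analysis was possible because the counts of the replicates are pooled in 1 group, and leaving out a replicate could not be run for the same reason. Depth limits low levels: a site of 20 reads could be listed only from 20%.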
